A study of Mus musculus with 20 samples.

Results

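Kinesins are motor proteins that hydrolyse ATP to move along microtubules or to take them apart. The kinesin family was taken as every row of the deposited count table whose symbol begins with Kif and a digit, which gave 39 of 22066 gene symbols. By known role, 12 act mainly in mitosis, meiosis and cytokinesis, 9 in spermatids, flagella and cilia, 13 in the transport of vesicles, organelles and endosomes, and 5 were kept apart. The study measured poly(A) RNA of 20 testis samples in 5 groups of 4, all from male NSG mice, whose lack of immunity lets human cells engraft. High-VCR and Low-VCR mice carried a B-cell acute lymphoblastic leukaemia (B-ALL) xenograft, received vincristine, and had high or low leukaemia infiltration of the peripheral blood. VCR mice received vincristine, and their labels name no injected cells. ALL mice carried the xenograft without the drug, and NC were the normal controls. Per the labels' protocols, mice were 6 weeks old, the xenograft was set up with 400000 patient-derived cells given into the tail vein, and vincristine sulfate was given into the peritoneum at 0.5 mg/kg once a week for 3 weeks from day 69, with saline for controls. The infiltration groups were formed from the blood, not the testis, and whether the patient-derived cells came from 1 or several patients is not given in the sources used here.

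Vincristine binds tubulin, the protein of which the kinesins' tracks are built. In the testis, microtubules form the spindles of dividing spermatogonia and spermatocytes, the manchette that shapes the spermatid head, and the axoneme of the sperm tail, and Sertoli cells use long microtubule bundles to move spermatids. Mitotic kinesins slide, crosslink or depolymerise spindle microtubules, kinesin-2 motors carry intraflagellar transport trains along growing axonemes, and kinesin-1 and kinesin-3 motors carry cargo towards microtubule plus ends in most cell types.

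Promoter windows are shown for 6 kinesins as examples of the matches counted here. RefSeq windows on GRCm38.p6, running from 250 bases before to 50 bases after the gene start, existed for 31 of the 39 kinesins, and 11 motifs were searched on both strands. TTTGAA, a form of the cell cycle homology region bound by complexes that time gene expression to the late cell cycle, was found in 9 of 11 mitotic kinesins with a window, in 1 of 8 spermatid and cilium kinesins and in 1 of 8 transport kinesins, against 20.2% of all genes. Within 50 bases of the start it was found in 7 of the 11 mitotic kinesins, against 5.72% of all genes. TGACGTCA, the element bound by CREB and CREM, was found in Kif17, Kif18a and Kif5c, 1 kinesin each of the spermatid and cilium, mitotic and transport roles, against 2.03% of all genes. CATGGCAAC, a form of the X-box bound by RFX factors, was found in Kif9 and Kif24, 2 of the 8 spermatid and cilium kinesins, and in 0 of 11 mitotic and 0 of 8 transport kinesins, against 0.877% of all genes. Capitals mark the TGACGTCA of Kif17, the CATGGCAAC of Kif9 (read on the opposite strand) and the TTTGAA of the other 4, which reads TTCAAA where it lies on the opposite strand.
Kif17, chr4:138262001-138262300, plus strand: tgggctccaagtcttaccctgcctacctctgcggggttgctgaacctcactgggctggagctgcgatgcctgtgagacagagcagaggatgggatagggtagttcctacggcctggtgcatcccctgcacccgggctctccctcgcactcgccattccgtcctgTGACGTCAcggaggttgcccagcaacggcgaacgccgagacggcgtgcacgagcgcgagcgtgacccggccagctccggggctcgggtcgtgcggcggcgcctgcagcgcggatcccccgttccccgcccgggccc
Kif9, chr9:110476708-110477007, plus strand: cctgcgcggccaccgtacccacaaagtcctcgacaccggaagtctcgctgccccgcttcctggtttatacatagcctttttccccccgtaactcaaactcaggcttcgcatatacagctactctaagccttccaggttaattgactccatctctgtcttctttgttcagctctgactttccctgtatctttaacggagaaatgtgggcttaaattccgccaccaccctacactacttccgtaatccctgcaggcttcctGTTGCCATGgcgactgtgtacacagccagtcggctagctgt
Kif11, chr19:37376132-37376431, plus strand: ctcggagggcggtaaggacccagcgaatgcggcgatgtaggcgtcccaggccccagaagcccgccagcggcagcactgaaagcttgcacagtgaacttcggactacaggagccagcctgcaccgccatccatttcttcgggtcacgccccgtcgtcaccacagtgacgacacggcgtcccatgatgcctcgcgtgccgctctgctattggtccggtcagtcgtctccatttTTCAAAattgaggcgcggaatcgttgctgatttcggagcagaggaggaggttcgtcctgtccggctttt
Kif15, chr9:122950831-122951130, plus strand: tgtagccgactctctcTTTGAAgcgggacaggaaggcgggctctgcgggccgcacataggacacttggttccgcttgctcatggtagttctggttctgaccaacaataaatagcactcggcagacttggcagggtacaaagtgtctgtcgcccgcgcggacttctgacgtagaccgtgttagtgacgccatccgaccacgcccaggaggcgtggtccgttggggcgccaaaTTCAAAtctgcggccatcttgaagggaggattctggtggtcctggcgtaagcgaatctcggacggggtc
Kif18b, chr11:102925075-102925374, minus strand: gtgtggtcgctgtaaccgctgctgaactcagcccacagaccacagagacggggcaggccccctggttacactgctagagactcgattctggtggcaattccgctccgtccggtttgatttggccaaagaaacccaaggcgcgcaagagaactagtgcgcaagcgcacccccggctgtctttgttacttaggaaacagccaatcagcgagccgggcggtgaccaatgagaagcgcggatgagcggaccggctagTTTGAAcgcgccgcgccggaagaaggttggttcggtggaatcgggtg
Kif23, chr9:61946750-61947049, minus strand: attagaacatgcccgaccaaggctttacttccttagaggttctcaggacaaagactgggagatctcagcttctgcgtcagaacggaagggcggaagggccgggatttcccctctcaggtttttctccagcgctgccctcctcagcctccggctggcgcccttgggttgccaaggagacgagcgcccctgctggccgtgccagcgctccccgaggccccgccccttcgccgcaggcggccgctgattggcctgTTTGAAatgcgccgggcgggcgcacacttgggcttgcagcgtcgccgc
The match lay 86 bases before the start in Kif17 and 19 bases before it in Kif11, and Kif15 held a second match 234 bases before the start. Across the table Kif9 has 2 windows, and the one with the match is shown. CCAAT was found in 14 of the 31 kinesins (41.1% of all genes), TGACG, which is part of TGACGTCA, in 14 (23.1%), GTTGCC, which is part of CATGGCAAC read on the other strand, in 10 (14.1%) and TTCGAA in 1 (1.80%). By role, CCAAT was in 7 of 11 mitotic, 5 of 8 spermatid and cilium and 1 of 8 transport kinesins. In the same order TGACG was in 6, 3 and 5 and GTTGCC in 2, 4 and 3. Within 50 bases of the start TGACG was in 1, 2 and 5, against 11.1% of all genes. GCGGGAA was found in 2 kinesins (5.29% of all genes), TTTGGCGC in 2 (0.585%), the mitotic Kif15 and Kif18a, AACTGNC in 3 (14.5%) and CAGTTG in 3 (15.4%). The windows shown were picked after the matches were seen, and a match is a description of letters, not of a bound site.

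Total counts were 9425158 to 16357287 per library, and 38 of the 39 kinesins passed the filter on low counts. Kif12 did not pass, with 1 count in ALL, 4 counts in 2 libraries of VCR and 0 in the other groups. Values are CPM, counts scaled to a common library size after TMM normalisation, and a gene is said to rise or fall where edgeR's quasi-likelihood test gave a Benjamini-Hochberg adjusted p under 0.05 over the 16534 genes tested. Values written with ± are log2 fold changes ± standard error with n = 4 libraries a group unless another unit is named. Treated libraries lay apart from untreated ones, VCR 1 lay farthest out, and mitochondrially encoded genes held 8.26% of counts in VCR, against 2.23% in NC. Markers of testis cell types were present in every group. In VCR relative to NC, 6 of 9 spermatocyte, 10 of 10 round spermatid and 7 of 7 elongating spermatid markers fell. Of somatic markers, 11 of 12 Sertoli, 7 of 7 Leydig, 5 of 5 peritubular, 4 of 5 endothelial and 7 of 7 macrophage genes rose, as did 3 of 3 tested of 5 neuronal genes and 2 of 3 tested of 6 B lineage and leukocyte genes. Of 6 undifferentiated spermatogonia markers tested 2 rose and 1 fell, and of 5 differentiating spermatogonia markers 1 rose and 2 fell. Of all genes tested 42.1% rose and 35.6% fell in VCR relative to NC. These rises and falls rest on TMM scaling. With libraries scaled to the summed counts of Sertoli cell genes, 3.92% of the genes that passed were higher. Rbfox3, a defining neuronal gene, was at 0 in ALL. In bulk tissue, fewer cells of a type and less RNA per cell cannot be told apart. The library numbers of NC and VCR form a range of their own, and a difference between either of them and High-VCR, Low-VCR or ALL cannot be told apart from a difference between ranges.

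Untreated testes were dominated by a few kinesins, compared here as CPM per kilobase of merged exons. Kif2b, a microtubule depolymerase of the kinesin-13 group, stood first at 566 ± 43.5 CPM per kilobase in ALL and 566 ± 11.9 in NC (SD, n = 4 each). Kif17 came next at 142 ± 3.36 in ALL and 135 ± 11.9 in NC, and then Kif9 at 123 ± 5.90 in ALL and 129 ± 11.3 in NC; their libraries overlapped in NC but not in ALL. They were followed in NC by Kif2c at 95.7 ± 7.91, Kif27 at 73.7 ± 2.15 and Kif3b at 53.4 ± 2.85, and then by Kif3a at 44.97 ± 1.75 and Kif2a at 44.9 ± 1.55, which overlapped. The highest transport motor in NC was Kif21b at 10.04 ± 1.49, near the mitotic Kif15 at 9.69 ± 0.994 and above the mitotic Kif11 at 4.60 ± 0.644, and in NC Kif21a stood at 6.93 ± 0.362 and Kif5b at 6.30 ± 0.627. In VCR libraries the order was flatter. Kif2b was still first at 68.1 ± 45.9, but Kif9 at 26.5 ± 21.0, Kif21a at 25.8 ± 6.64, Kif5b at 23.9 ± 5.54, Kif3b at 23.3 ± 9.06 and Kif17 at 21.7 ± 15.9 lay within one another's spread.

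In VCR and High-VCR, most mitotic and most spermatid and cilium kinesins fell and 8 of 13 transport kinesins rose, while in Low-VCR fewer of each role passed. With libraries scaled to Sertoli cell genes no kinesin rose in any of these comparisons, and 1.31% to 3.92% of all genes that passed were higher. In VCR relative to NC, 33 of 38 kinesins passed the test, 10 higher and 23 lower, against 77.7% of all genes tested (42.1% higher and 35.6% lower), so that the share of kinesins passing was near that of all genes. In High-VCR relative to ALL 30 passed, 10 higher and 20 lower, against 72.9% of all genes (42.4% higher, 30.5% lower). In Low-VCR relative to ALL 15 passed, 8 higher and 7 lower, against 51.6% of all genes (36.4% higher, 15.2% lower). The Low-VCR count was 27 without VCR 1, which belongs to neither group but shares the fit. The kinesins' median log2 fold change was -0.86 in VCR, -0.72 in High-VCR and -0.56 in Low-VCR, beside 0.10, 0.16 and 0.08 over all genes. VCR and NC values did not overlap in 32 of 38 kinesins, against 73.9% of all genes, High-VCR and ALL values in 26, against 69.9%, and Low-VCR and ALL values in 29, against 64.4%. All 20 kinesins that fell in High-VCR also fell in VCR, and 9 of the 10 that rose in High-VCR rose in VCR, which is 20 of 23 and 9 of 10 of the VCR calls. Over all genes the overlap was of a like size: genes lower in both were 95.4% of those lower in High-VCR and 81.6% of those lower in VCR, and genes higher in both were 92.7% and 93.5%. These comparisons share no library but share the fit.

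The directions depend on what the libraries are scaled to. With libraries scaled by their total counts alone, the median of all genes moved to 0.49 in VCR, 0.45 in High-VCR and 0.33 in Low-VCR, and the kinesins split into 12 higher and 17 lower in VCR, 13 and 16 in High-VCR, and 10 and 0 in Low-VCR. Of all genes that passed, 65.0%, 68.6% and 89.3% were then higher, against 54.2%, 58.2% and 70.6% with TMM. The falls that no longer passed with total counts alone were those of Kif19a, Kif1b, Kif20a, Kif20b, Kif5c and Kif6 in VCR, of Kif1b, Kif20a, Kif2c and Kif5c in High-VCR, and all 7 in Low-VCR. With DESeq2's size factors the Low-VCR split was 7 higher and 16 lower, and with upper-quartile scaling 8 and 11. Of all genes that passed in Low-VCR, 52.9% and 64.9% were higher with these scalings. With libraries scaled to the summed counts of 12 Sertoli cell genes, the median of all genes was -2.21 in VCR, -2.15 in High-VCR and -1.97 in Low-VCR, and no kinesin was higher: 35, 36 and 36 were lower. Few genes of any kind were higher: 3.92%, 2.25% and 1.31% of all that passed. Under each of these scalings the transport median stayed above the mitotic and the spermatid and cilium medians. A change of scaling moves all genes of a comparison by nearly the same amount, so that this order could hardly change. With Sertoli scaling in VCR the mitotic median was -3.30, the spermatid and cilium median -3.41 and the transport median -1.17.

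**Figure D1:**
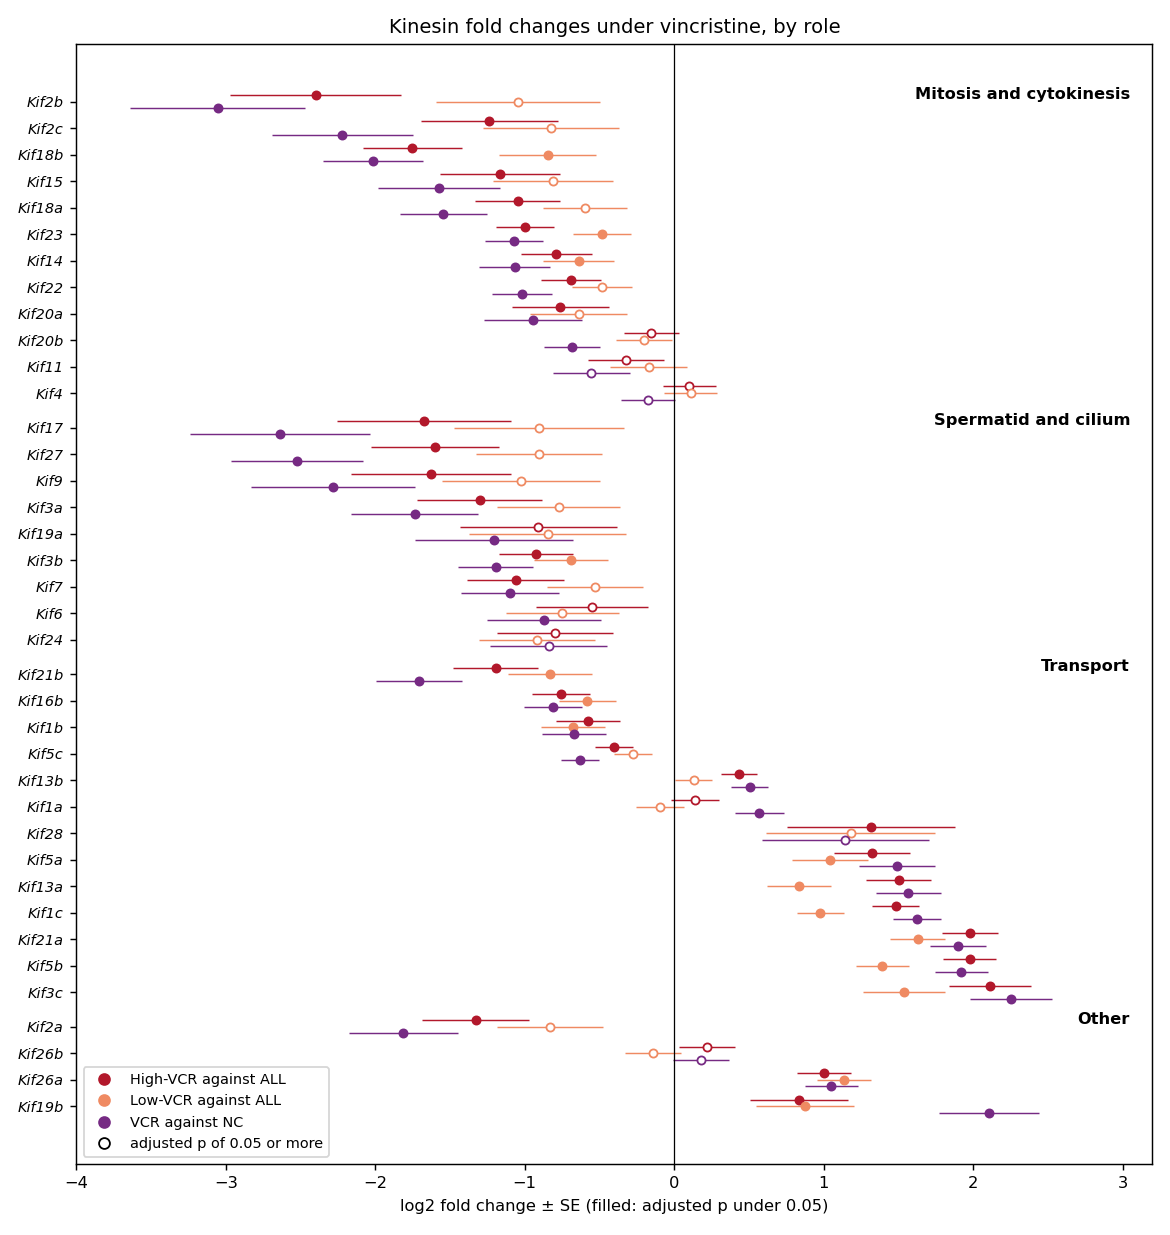
Log2 fold change (x axis, ± SE) of 38 kinesins (y axis, grouped by role and ordered by VCR relative to NC) in High-VCR relative to ALL, Low-VCR relative to ALL and VCR relative to NC, n = 4 libraries a group, filled where the adjusted p was under 0.05. No mitotic or spermatid and cilium kinesin rose, while 8 of 13 transport kinesins rose in VCR, against 42.1% of all genes. Each of those 8 turned below 0 when libraries were scaled to Sertoli cell genes.

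Of the 12 mitotic kinesins, 10 fell in VCR, 9 in High-VCR and 3 in Low-VCR, against 35.6%, 30.5% and 15.2% of all genes. None of the 12 rose, against 42.1%, 42.4% and 36.4% of all genes, and their median log2 fold changes were -1.07, -0.89 and -0.62. The Low-VCR count was 9 without VCR 1 and 5 without High-VCR 2. The largest fall was that of Kif2b. It was at 214, 168, 372 and 209 CPM in High-VCR, 765, 568, 765 and 368 in Low-VCR, 8.99, 174, 254 and 174 in VCR, 1409, 1266, 1203 and 1203 in ALL and 1303, 1281, 1246 and 1252 in NC. Every treated library lay below every untreated one, VCR 1 was lowest by far, and Low-VCR 1 and 3 were highest among the treated. Kif2b fell in VCR (-3.06 ± 0.59, adjusted p 0.000165) and in High-VCR (-2.40 ± 0.57, adjusted p 0.00128) and did not pass in Low-VCR (-1.04 ± 0.55, adjusted p 0.114). Kif2c, the kinesin-13 that corrects kinetochore attachments, was at 138, 212, 274 and 168 CPM in High-VCR, 232, 322, 195 and 305 in Low-VCR, 11.1, 85.1, 165 and 97.1 in VCR, 485, 463, 479.8 and 438 in ALL and 448, 402, 376 and 444 in NC. Treated and untreated libraries did not overlap either, and it fell in VCR (-2.22 ± 0.47, adjusted p 0.000417) and in High-VCR (-1.24 ± 0.46, adjusted p 0.0228), a call lost without High-VCR 1 or 4 (adjusted p 0.0573 to 0.0672). Within Low-VCR the order of these relatives was reversed: libraries 1 and 3 were highest for Kif2b, and libraries 2 and 4 for Kif2c.

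Kif18a and Kif18b, kinesin-8 motors that work at microtubule plus ends, both fell. Kif18b was at 18.9, 45.7, 31.3 and 20.6 CPM in High-VCR, 67.1, 39.9, 64.9 and 46.5 in Low-VCR, 8.61, 19.97, 34.9 and 27.8 in VCR, 87.4, 95.8, 100.8 and 108.9 in ALL and 94.7, 99.2, 94.1 and 82.0 in NC. Treated and untreated libraries did not overlap. It fell in VCR (-2.02 ± 0.33, adjusted p 3.78e-05), in High-VCR (-1.75 ± 0.33, adjusted p 0.000158) and in Low-VCR (-0.85 ± 0.32, adjusted p 0.0369), where the call was lost without ALL 2, 3 or 4 or Low-VCR 2 or 4 (adjusted p 0.059 to 0.103). Kif18a, which aligns chromosomes in mouse germ cells, fell in VCR (-1.54 ± 0.29, adjusted p 0.000123) and High-VCR (-1.047 ± 0.28, adjusted p 0.00341). It overlaps Mettl15 on the other strand, and Kif20a likewise overlaps Cdc23, Kif2a Dimt1, Kif4 Pdzd11 and Kif7 Ticrr; the strand setting of the counting is not given in the sources used here, so such reads cannot be told apart. Kif15, a spindle motor that can stand in for Kif11, was at 30.1, 70.3, 46.9 and 37.7 CPM in High-VCR, 62.9, 62.3, 47.3 and 64.5 in Low-VCR, 8.53, 21.0, 63.9 and 50.1 in VCR, 114, 109.9, 97.3 and 94.6 in ALL and 98.3, 97.3, 120.1 and 111 in NC. The High-VCR and VCR libraries spread widely, between a low library 1 in each group and a high High-VCR 2 and VCR 3, and all lay below the untreated libraries. Kif15 fell in VCR (-1.57 ± 0.41, adjusted p 0.00207) and in High-VCR (-1.17 ± 0.40, adjusted p 0.0154), a call lost without High-VCR 1 (adjusted p 0.052).

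Other motors act on the central spindle or on chromosome arms. Kif23, the motor of centralspindlin, fell in VCR (-1.07 ± 0.19, adjusted p 9.05e-05) and High-VCR (-0.998 ± 0.19, adjusted p 0.000202). In Low-VCR its call (-0.48 ± 0.19, adjusted p 0.0445) was lost without NC 1 to 4, ALL 1 to 4, VCR 2, Low-VCR 2, 3 or 4 or High-VCR 3 (adjusted p 0.0514 to 0.118). Kif20a, which brings the chromosomal passenger complex to the midzone, fell in VCR (-0.94 ± 0.33, adjusted p 0.0142; adjusted p 0.0504 without VCR 2) and in High-VCR (-0.76 ± 0.32, adjusted p 0.0431), where the call was lost without NC 1 to 4, ALL 1 to 4, Low-VCR 1 or High-VCR 1, 3 or 4 (adjusted p 0.0503 to 0.134). Kif14, which acts with citron kinase in cytokinesis, fell in VCR (-1.07 ± 0.24, adjusted p 0.000613), High-VCR (-0.79 ± 0.24, adjusted p 0.0066) and Low-VCR (-0.64 ± 0.24, adjusted p 0.0316), the last lost without ALL 2, 3 or 4 or Low-VCR 2 or 3 (adjusted p 0.0617 to 0.0879). Kif22, a chromokinesin, fell in VCR (-1.02 ± 0.20, adjusted p 0.000209) and High-VCR (-0.69 ± 0.20, adjusted p 0.00526). Kif20b fell in VCR (-0.68 ± 0.19, adjusted p 0.00313) and did not pass in High-VCR (-0.15 ± 0.19, adjusted p 0.465) or Low-VCR (-0.20 ± 0.19, adjusted p 0.343).

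With TMM scaling and all 20 libraries Kif11 and Kif4 did not pass in any of these comparisons. In VCR 11 of the 12 mitotic kinesins passed as lower with DESeq2's size factors, and 11 did without High-VCR 2. Kif11, the motor that drives spindle poles apart, was at 21.0, 37.8, 26.6 and 21.0 CPM in High-VCR, 35.7, 25.5, 23.6 and 33.3 in Low-VCR, 14.02, 15.1, 34.9 and 29.4 in VCR, 33.7, 34.0, 33.7 and 31.6 in ALL and 28.7, 34.7, 40.4 and 33.5 in NC. The treated groups overlapped the untreated ones, with VCR 1 and 2 low and VCR 3 and High-VCR 2 at untreated levels. The log2 fold change was below 0 in each (VCR -0.56 ± 0.26, adjusted p 0.0576; High-VCR -0.32 ± 0.26, adjusted p 0.263; Low-VCR -0.17 ± 0.26, adjusted p 0.567). Kif4, a chromokinesin that works with Prc1 on the central spindle, was at 20.3, 32.6, 20.9 and 19.1 CPM in High-VCR, 25.2, 23.4, 19.0 and 25.8 in Low-VCR, 13.7, 18.2, 23.6 and 23.3 in VCR, 21.8, 19.3, 23.9 and 21.5 in ALL and 21.9, 22.3, 23.1 and 21.7 in NC. VCR 1 was lowest and High-VCR 2 highest of all libraries, the groups overlapped, and the log2 fold changes lay near 0 (VCR -0.17 ± 0.18, adjusted p 0.378; High-VCR 0.10 ± 0.18, adjusted p 0.613; Low-VCR 0.11 ± 0.18, adjusted p 0.6). With scaling by total counts alone 1 mitotic kinesin passed as higher in High-VCR, where 68.6% of all genes that passed were higher. With Sertoli scaling all 12 were lower in each treated group, and 1.31% to 3.92% of all genes that passed were higher.

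**Figure D2:**
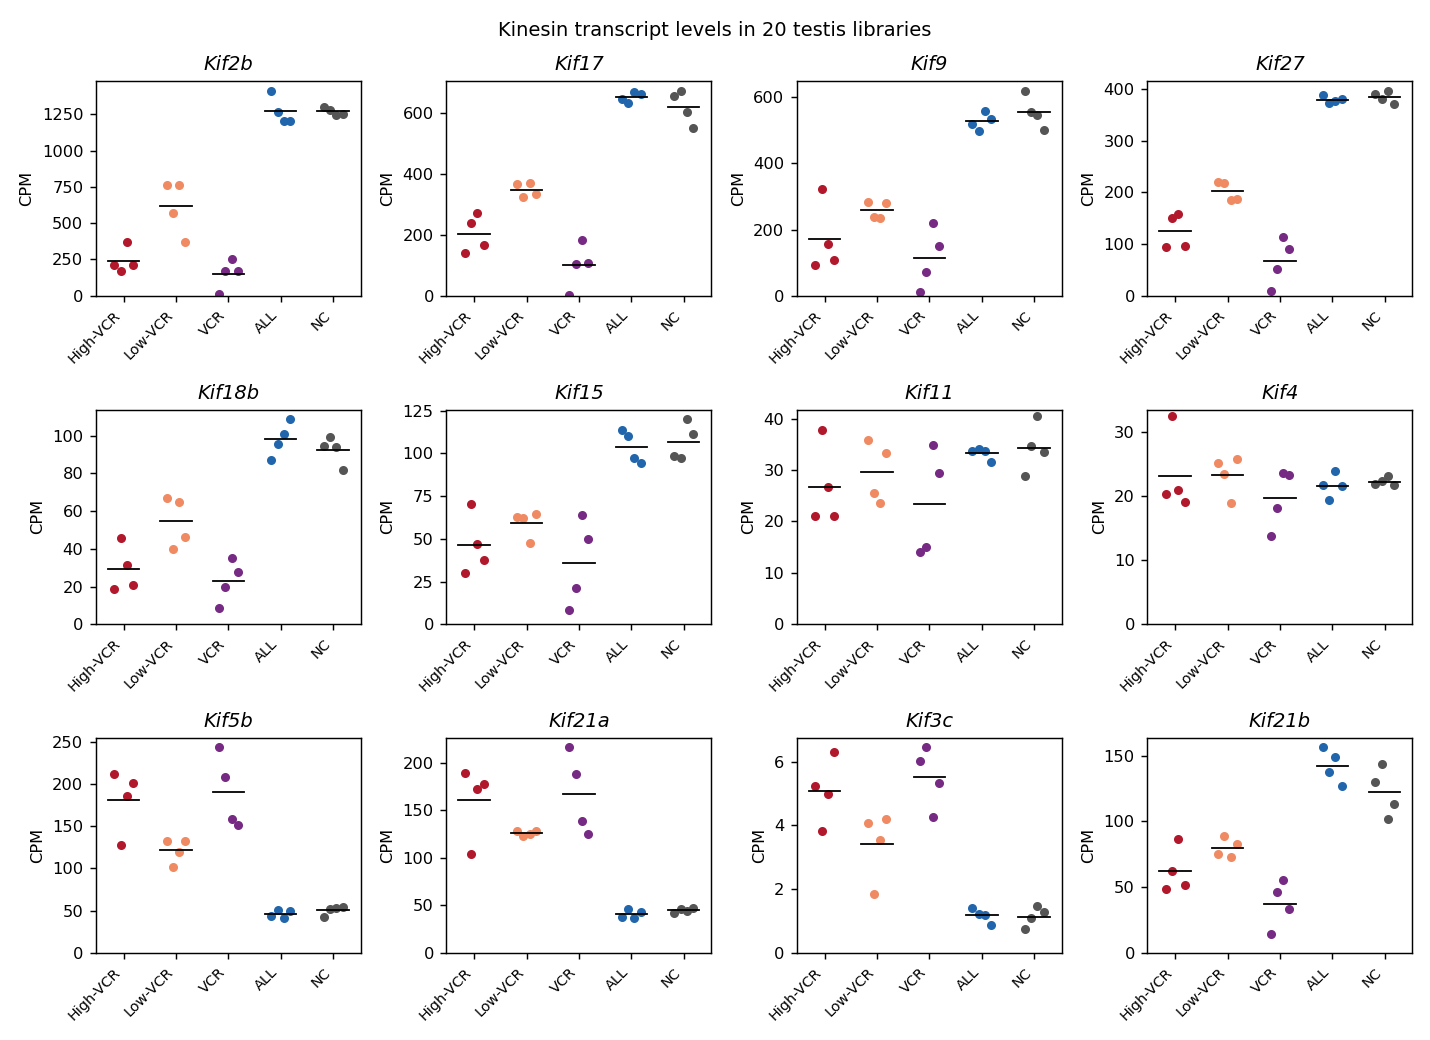
TMM-scaled CPM (y axis, linear from 0) of 12 kinesins in each of 20 libraries (points, in order of replicate number) by group (x axis), with group means as lines, n = 4. Kif2b, Kif17, Kif9, Kif27, Kif18b, Kif15 and Kif21b were lower in every treated library than in every untreated one, Kif5b, Kif21a and Kif3c were higher in every one, a direction that turned under Sertoli scaling, and Kif11 and Kif4 overlapped.

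Of the 9 kinesins of spermatids, flagella and cilia, 8 fell in VCR, 6 in High-VCR and 1 in Low-VCR. Of all genes tested 35.6%, 30.5% and 15.2% fell. None of the 9 rose, against 42.1%, 42.4% and 36.4% of all genes, and their median log2 fold changes were -1.21, -1.06 and -0.85. Without VCR 1 the VCR and Low-VCR counts were 6 each, and without High-VCR 2 the High-VCR count was 9, with a median of -1.66, and the Low-VCR count 2. Kif17, a kinesin-2 motor that in mouse spermatids carries a coactivator of CREM, was at 141, 237, 269.5 and 167 CPM in High-VCR, 366, 323, 369.8 and 333 in Low-VCR, 3.73, 104, 181 and 108.8 in VCR, 645, 632, 666 and 661 in ALL and 653, 669.8, 603 and 549 in NC. Treated and untreated libraries were separate, and VCR 1 held almost none. Kif17 fell in VCR (-2.64 ± 0.60, adjusted p 0.000759) and in High-VCR (-1.68 ± 0.58, adjusted p 0.016; adjusted p 0.143 with limma voom, and 8.81e-07 to 0.143 over all alternatives), and in Low-VCR it did not pass (-0.90 ± 0.57, adjusted p 0.179). Its exons overlap those of Sh2d5 on the same strand. Kif27, a relative of Kif7 needed for motile cilia in mouse, was at 94.9, 150.4, 158 and 96.5 CPM in High-VCR, 220.3, 218, 186 and 187 in Low-VCR, 9.98, 52.3, 114 and 90.7 in VCR, 387, 372, 377 and 379.5 in ALL and 391, 381, 396 and 370.3 in NC. It showed the same separation and fell in VCR (-2.52 ± 0.44, adjusted p 6.52e-05) and High-VCR (-1.60 ± 0.43, adjusted p 0.00307). Kif9, a motor of the mouse sperm flagellum, was at 93.1, 324, 156 and 108.6 CPM in High-VCR, 284, 238, 235 and 281 in Low-VCR, 12.6, 72.4, 219 and 151 in VCR, 518, 498, 557 and 536 in ALL and 619, 556, 546 and 501 in NC. Its treated libraries covered a range from VCR 1, which was nearly empty, to High-VCR 2, and all lay under the untreated ones. Kif9 fell in VCR (-2.29 ± 0.55, adjusted p 0.00113) and High-VCR (-1.63 ± 0.54, adjusted p 0.0118).

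Kif3a and Kif3b, the paired motors of intraflagellar transport, fell together. Kif3a was at 40.6, 112.96, 55.3 and 47.2 CPM in High-VCR, 102.5, 87.9, 91.3 and 87.3 in Low-VCR, 11.9, 27.4, 84.3 and 70.0 in VCR, 164, 167, 150.1 and 150.1 in ALL and 159, 153, 165 and 168 in NC. Treated libraries were all lower than untreated ones, and High-VCR 2 was the highest of them. Kif3a fell in VCR (-1.74 ± 0.42, adjusted p 0.0013) and High-VCR (-1.301 ± 0.42, adjusted p 0.0103). Kif3b fell in VCR (-1.19 ± 0.25, adjusted p 0.000348), High-VCR (-0.92 ± 0.25, adjusted p 0.00319) and Low-VCR (-0.69 ± 0.25, adjusted p 0.0277), the last lost without ALL 3 or 4 or Low-VCR 2 or 3 (adjusted p 0.0509 to 0.0732). Kif7, a regulator of hedgehog signalling at the cilium tip, fell in VCR (-1.10 ± 0.33, adjusted p 0.00543) and High-VCR (-1.06 ± 0.32, adjusted p 0.0075). Kif19a, which shortens axonemal microtubules in mouse motile cilia, fell in VCR (-1.21 ± 0.53, adjusted p 0.0458), a call lost without NC 1 to 4, ALL 1 to 4, VCR 1, 2 or 4, Low-VCR 1 or 2 or High-VCR 3 (adjusted p 0.0503 to 0.111). Kif6, which acts in ependymal cilia of mouse, fell in VCR (-0.87 ± 0.38, adjusted p 0.0445), a call lost without NC 1 to 4, ALL 1 to 4, VCR 1 or 2 or High-VCR 3 (adjusted p 0.0522 to 0.13). Kif24, which holds back cilium formation at the mother centriole, did not pass; it was at 18.3, 59.1, 25.4 and 25.3 CPM in High-VCR, 33.2, 24.7, 28.5 and 31.4 in Low-VCR, 8.69, 20.2, 49.8 and 38.0 in VCR, 51.0, 49.0, 59.5 and 63.0 in ALL and 47.5, 52.7, 55.3 and 53.4 in NC. High-VCR 2 and VCR 3 reached untreated levels. Library 1 was lowest in High-VCR and in VCR but highest in Low-VCR. The log2 fold changes were -0.84 ± 0.39, adjusted p 0.0577 in VCR and -0.80 ± 0.39, adjusted p 0.0739 in High-VCR. With DESeq2's size factors all 9 kinesins of this role, Kif24 among them, passed as lower in VCR. Without High-VCR 2 all 9 did so in VCR and in High-VCR.

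Of the 13 transport kinesins, 8 rose and 4 fell in VCR, 8 rose and 4 fell in High-VCR, and 6 rose and 3 fell in Low-VCR. In the same order 42.1%, 42.4% and 36.4% of all genes rose and 35.6%, 30.5% and 15.2% fell. The transport medians of the log2 fold change were 1.14, 1.32 and 0.83. With Sertoli scaling no transport kinesin rose in any of these comparisons, and 1.31% to 3.92% of all genes that passed were higher. Kif5b, the widely expressed heavy chain of conventional kinesin, was at 212, 128, 186 and 201 CPM in High-VCR, 132, 102.3, 119 and 132 in Low-VCR, 245, 209, 158 and 151 in VCR, 43.8, 50.4, 41.2 and 49.3 in ALL and 42.9, 52.1, 52.6 and 53.7 in NC. Every treated library was above every untreated one, and High-VCR 2 was the lowest of its group. Kif5b rose in VCR (1.92 ± 0.18, adjusted p 7.43e-08), High-VCR (1.98 ± 0.18, adjusted p 8.03e-08) and Low-VCR (1.39 ± 0.17, adjusted p 5.15e-06). Kif21a, a kinesin-4 motor that restrains microtubule growth, was at 189, 104, 173 and 178 CPM in High-VCR, 128, 123, 125 and 128 in Low-VCR, 217, 188, 139 and 125 in VCR, 37.4, 46.2, 36.5 and 42.9 in ALL and 41.9, 45.6, 44.4 and 47.5 in NC. The Low-VCR libraries agreed closely with one another, and all treated libraries were above the untreated ones. It rose in VCR (1.90 ± 0.19, adjusted p 1.22e-07), High-VCR (1.98 ± 0.19, adjusted p 1.07e-07) and Low-VCR (1.63 ± 0.18, adjusted p 2.17e-06).

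Kif3c, a kinesin-2 motor best known from neurons, was at 5.22, 3.83, 4.995 and 6.31 CPM in High-VCR, 4.07, 1.84, 3.54 and 4.21 in Low-VCR, 6.02, 6.46, 4.26 and 5.32 in VCR, 1.41, 1.21, 1.17 and 0.883 in ALL and 0.731, 1.08, 1.45 and 1.28 in NC. It was sparse, with 45 counts over the 4 ALL libraries and 48 over the 4 NC libraries, but the treated libraries were all higher. It rose in VCR (2.25 ± 0.27, adjusted p 1.24e-06), High-VCR (2.11 ± 0.27, adjusted p 3.02e-06) and Low-VCR (1.54 ± 0.28, adjusted p 0.000175). Kif1c, a kinesin-3 motor of vesicle traffic, rose in VCR (1.62 ± 0.16, adjusted p 1.31e-07), High-VCR (1.48 ± 0.16, adjusted p 3.92e-07) and Low-VCR (0.98 ± 0.16, adjusted p 6.41e-05). Kif13a, which carries cargo from the trans-Golgi network, rose in VCR (1.57 ± 0.22, adjusted p 5.45e-06), High-VCR (1.502 ± 0.22, adjusted p 9.51e-06) and Low-VCR (0.83 ± 0.22, adjusted p 0.00395). Kif5a, the heavy chain known for its role in axons, rose in VCR (1.49 ± 0.25, adjusted p 4.25e-05), High-VCR (1.32 ± 0.25, adjusted p 0.000166) and Low-VCR (1.04 ± 0.25, adjusted p 0.0024). Kif13b rose in VCR (0.51 ± 0.12, adjusted p 0.00121) and High-VCR (0.43 ± 0.12, adjusted p 0.00437), where it did not pass with DESeq2's size factors (0.26) or with only the groups compared (0.19), and Kif1a, a carrier of synaptic vesicle precursors, rose in VCR (0.57 ± 0.16, adjusted p 0.00408). Kif28 passed in High-VCR (1.32 ± 0.56, adjusted p 0.0429) and lost that call without ALL 1 or 2, VCR 4, Low-VCR 2 or High-VCR 1, 3 or 4 (adjusted p 0.0501 to 0.0996); its exons overlap those of Ahctf1 on the same strand. All these directions turned below 0 with Sertoli scaling.

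The 4 transport kinesins that fell were Kif21b, Kif16b, Kif1b and Kif5c. Kif21b, the close relative of Kif21a, was at 48.4, 62.6, 86.9 and 51.3 CPM in High-VCR, 75.6, 89.1, 73.1 and 82.5 in Low-VCR, 14.3, 46.5, 55.7 and 33.2 in VCR, 156, 137, 149 and 127 in ALL and 130.3, 143, 102.2 and 113.4 in NC. Treated and untreated libraries did not overlap. It fell in VCR (-1.71 ± 0.29, adjusted p 4.29e-05), High-VCR (-1.19 ± 0.28, adjusted p 0.0012) and Low-VCR (-0.83 ± 0.28, adjusted p 0.0207). Kif16b, a motor of early endosomes, fell in VCR (-0.81 ± 0.19, adjusted p 0.00107), High-VCR (-0.76 ± 0.19, adjusted p 0.0021) and Low-VCR (-0.58 ± 0.19, adjusted p 0.0186), the last lost without ALL 4 or Low-VCR 2 or 4 (adjusted p 0.0522 to 0.0718). Kif1b fell in VCR (-0.67 ± 0.21, adjusted p 0.00851), High-VCR (-0.58 ± 0.21, adjusted p 0.0216; adjusted p 0.0527 to 0.0571 without ALL 4 or High-VCR 3) and Low-VCR (-0.68 ± 0.21, adjusted p 0.0139). Kif5c fell in VCR (-0.63 ± 0.13, adjusted p 0.000243) and High-VCR (-0.40 ± 0.13, adjusted p 0.009). With scaling by total counts alone the falls of Kif1b and Kif5c did not pass in VCR (-0.29 and -0.25) or High-VCR (-0.29 and -0.11).

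Close relatives stood in other proportions after treatment, a reading within each library that does not depend on scaling. These pairs were picked after their values were seen and are given as descriptions. The level of Kif21a per kilobase was 3.12 to 7.35 times that of Kif21b in High-VCR, 2.59 to 3.205 times in Low-VCR and 4.68 to 28.5 times in VCR, against 0.450 to 0.636 in ALL and 0.599 to 0.817 in NC. Kif5b per kilobase was 3.15 to 4.81 times Kif5c in High-VCR, 1.78 to 2.98 in Low-VCR and 3.90 to 8.05 in VCR, against 0.688 to 0.860 in ALL and 0.754 to 1.0003 in NC. Kif1c per kilobase was 1.24 to 2.13 times Kif1b in High-VCR, 1.02 to 1.97 in Low-VCR and 1.47 to 3.13 in VCR, against 0.405 to 0.459 in ALL and 0.413 to 0.4999 in NC. In each of these pairs every treated library lay above every untreated one. Kif3c per kilobase was also a larger fraction of Kif3a, at 0.0164 to 0.0647 in High-VCR, 0.0101 to 0.0233 in Low-VCR and 0.0245 to 0.245 in VCR, against 0.00285 to 0.00418 in ALL and 0.00222 to 0.00428 in NC, but it stayed the minor motor throughout.

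The shares of all kinesin counts also do not depend on scaling. Transport kinesins held 32.8% ± 8.60 of kinesin counts in High-VCR, 20.2% ± 1.28 in Low-VCR and 44.4% ± 19.3 in VCR, against 11.3% ± 0.289 in ALL and 10.4% ± 0.692 in NC (SD, n = 4 each). Mitotic kinesins held 29.6% ± 2.40, 38.0% ± 2.80 and 24.4% ± 7.81 in High-VCR, Low-VCR and VCR, against 42.5% ± 1.62 in ALL and 42.7% ± 0.853 in NC. That lower share lay in Kif2b and Kif2c, which together held 17.7% ± 4.13 in High-VCR, 26.7% ± 3.41 in Low-VCR and 11.5% ± 6.62 in VCR, against 32.4% ± 1.79 in ALL and 32.2% ± 0.883 in NC. The other 10 mitotic kinesins held a mean share that was not lower, at 11.8% ± 2.19 in High-VCR, 11.2% ± 0.738 in Low-VCR and 12.9% ± 2.31 in VCR, against 10.1% ± 0.221 in ALL and 10.5% ± 0.606 in NC, and the ranges overlapped in VCR and NC and in each of High-VCR and Low-VCR with ALL. Spermatid and cilium kinesins held 31.9% ± 7.27 in High-VCR, 35.9% ± 1.75 in Low-VCR and 25.7% ± 10.8 in VCR, against 40.5% ± 0.950 in ALL and 41.1% ± 1.09 in NC, and High-VCR 2 at 42.2% lay within the untreated values. The wide spread of the transport share in VCR came with library 1, where transport kinesins held 70.7% of the counts; the lowest VCR library had 28.4%.

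**Figure D3:**
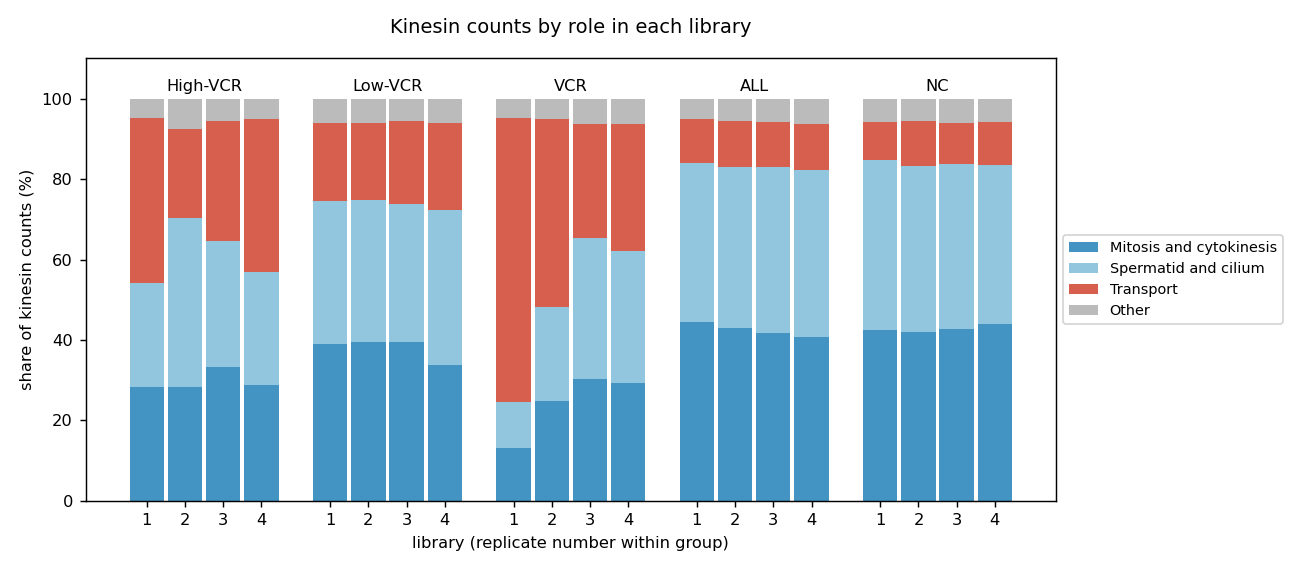
Share of kinesin counts (y axis, percent) by role in each library (bars, x axis by group and replicate number). Transport kinesins hold 19.1% to 70.7% of the counts in treated libraries, against 9.57% to 11.6% in the untreated ones.

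Of the kinesins kept apart from the roles, Kif2a, the third kinesin-13 depolymerase, was lower as well. It was at 68.5, 193, 121 and 81.9 CPM in High-VCR, 191, 166, 142 and 156 in Low-VCR, 28.1, 61.1, 139.7 and 98.1 in VCR, 267, 283, 294 and 319.7 in ALL and 295, 276, 295 and 282 in NC. Every treated library was below every untreated one, and Kif2a fell in VCR (-1.81 ± 0.36, adjusted p 0.00024) and High-VCR (-1.33 ± 0.36, adjusted p 0.00328). Kif26a, an atypical kinesin that acts in the enteric neurons of mouse, rose in VCR (1.052 ± 0.18, adjusted p 4.99e-05), High-VCR (1.003 ± 0.18, adjusted p 8.89e-05) and Low-VCR (1.14 ± 0.18, adjusted p 5.08e-05). Kif19b was sparse, with at most 3.11 CPM in a library. It rose in VCR (2.11 ± 0.33, adjusted p 2.28e-05), while its calls in High-VCR (0.83 ± 0.33, adjusted p 0.0299) and Low-VCR (0.87 ± 0.33, adjusted p 0.0346) were lost without ALL 1, 3 or 4, Low-VCR 2 or High-VCR 4 (adjusted p 0.0626 to 0.0997) and without ALL 1, 3 or 4 or Low-VCR 2 or 4 (adjusted p 0.0612 to 0.109). The rises of Kif26a and Kif19b turned below 0 with Sertoli scaling. Kif26b did not pass (0.18 ± 0.19, adjusted p 0.392 in VCR).

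Partners of the motors were read from lists of related genes. In VCR relative to NC 42.1% of all genes tested rose and 35.6% fell, with a median log2 fold change of 0.10. Of 16 kinesins and partners outside the symbol rule, 4 rose and 9 fell in that comparison, with a median of -0.66. Kifap3, the subunit that completes the Kif3a and Kif3b motor and that was picked after its value was seen, averaged 86.1 ± 46.1 CPM in VCR and 587 ± 21.1 in NC (SD, n = 4 each; -2.77 ± 0.35, adjusted p 1.73e-06). Trak1 and Trak2, adaptors that link mitochondria to conventional kinesin, rose (1.65 ± 0.20, adjusted p 1.48e-06, and 1.66 ± 0.14, adjusted p 3.92e-08), and both turned below 0 with Sertoli scaling. Kifbp, which binds motor domains and keeps them off microtubules, fell (-1.19 ± 0.13, adjusted p 4.97e-07), as did Klc3, a kinesin light chain of the sperm tail (-1.22 ± 0.20, adjusted p 3.26e-05). Cenpe, the kinesin of kinetochores, fell (-1.58 ± 0.27, adjusted p 5.09e-05), and so did Kifc1, a motor that moves towards minus ends (-0.64 ± 0.14, adjusted p 0.000469), which did not pass with scaling by total counts alone (-0.26). Of 16 spindle partners 13 fell and none rose, with a median of -1.23, among them Ccnb1 (-1.87 ± 0.28, adjusted p 1.22e-05), Plk1 (-2.08 ± 0.38, adjusted p 8.93e-05) and Ccnb2 (-2.01 ± 0.42, adjusted p 0.00036), regulators of entry into and passage through division. Of 17 intraflagellar transport genes 14 fell and 1 rose, with a median of -1.35, among them the train components Ift57 (-2.16 ± 0.35, adjusted p 2.66e-05), Ift81 (-2.15 ± 0.35, adjusted p 2.76e-05) and Ift43 (-1.35 ± 0.23, adjusted p 4.81e-05). In High-VCR relative to ALL the 3 lists had 4, 0 and 1 genes higher and 9, 6 and 9 lower. Of all genes 42.4% were higher and 30.5% lower there. In Low-VCR relative to ALL the lists had 4, 1 and 1 higher and 5, 2 and 5 lower, against 36.4% and 15.2% of all genes.

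Treated libraries of one group differed from one another, and kinesins followed these differences in unlike ways. VCR 1 was the lowest VCR library for 27 of 38 kinesins, and VCR 3 the highest for 25. Spermatocyte markers summed to 143, 817, 2613 and 1836 CPM in VCR 1 to 4 and round spermatid markers to 29.9, 328, 644 and 402. High-VCR 2 was the highest of its group for 19 kinesins, among them Kif9, Kif3a, Kif24 and 10 of 12 mitotic kinesins, and the lowest for 12, among them Kif5b, Kif21a and Kif2b. Spermatocyte markers summed to 808, 3259, 1426 and 1196 CPM in High-VCR 1 to 4, Sertoli markers to 8813, 5391, 7633 and 9191 and round spermatid markers to 455, 658, 782 and 509. In Low-VCR, round spermatid markers summed to 1483, 991, 1544 and 858 CPM and elongating spermatid markers to 10707, 16731, 8939.5 and 15452. Within these 4 libraries Kif2b was highest in those high for round spermatid markers and Kif2c in those high for elongating spermatid markers. The Kif2b match did not hold in High-VCR. There library 2 was lowest for Kif2b at 168 CPM, with a round spermatid sum of 658, above the 455 and 509 of libraries 1 and 4. Kif2c kept the order of the elongating spermatid sum in High-VCR (6790, 10922, 13170 and 8307 CPM in libraries 1 to 4). It also did so in VCR (273, 2975, 8520 and 5001 CPM), where libraries 1 and 3 were the extremes for most kinesins, Kif2b among them. Over groups, the summed spermatocyte markers were 808 to 3259 CPM in High-VCR, 1743 to 2518 in Low-VCR and 143 to 2613 in VCR, against 3793 to 3996 in ALL and 4075 to 4319 in NC. Sertoli markers were 5391 to 9191 CPM in High-VCR, 5113 to 6740.5 in Low-VCR and 6899 to 10704 in VCR, against 1441 to 1536 in ALL and 1559 to 1825 in NC. The part of the cell makeup in the kinesin differences was not tested. Without VCR 1 the VCR counts were 10 mitotic and 6 spermatid and cilium kinesins lower, and 8 transport kinesins higher and 4 lower.

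**Figure D4:**
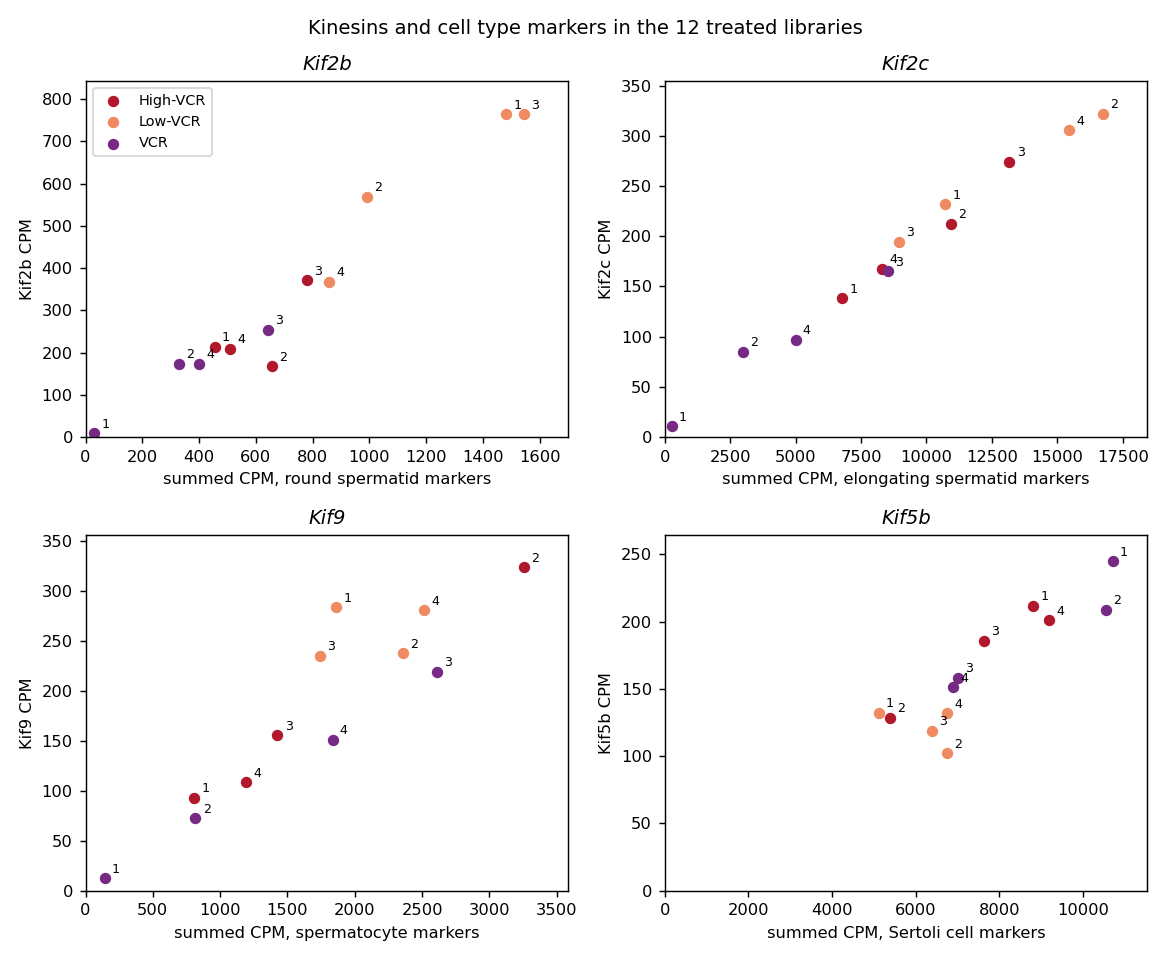
CPM of 4 kinesins (y axes) against the summed CPM of a cell type's markers (x axes) in the 12 treated libraries, coloured by group and numbered by replicate. Kif2b is lowest at 8.99 CPM in VCR 1, where round spermatid markers sum to 29.9 CPM, and Kif9 is highest at 324 CPM in High-VCR 2, where spermatocyte markers sum to 3259 CPM; all points share the libraries' scaling.

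In ALL relative to NC no kinesin passed by edgeR, DESeq2 or limma voom, and 0% of all genes did by edgeR. ALL and NC values did not overlap in 3 kinesins, against 8.9% of all genes. At an unadjusted p under 0.05 there was 1 of 38 kinesins, against 748 of the 16534 genes tested. It was Kif1a, at 65.6, 68.0, 67.1 and 64.9 CPM in ALL and 50.4, 48.7, 55.7 and 49.3 in NC. Those groups did not overlap, but the fold change did not pass (0.38 ± 0.16, adjusted p 1). The next smallest p values belonged to Kif20b (-0.26 ± 0.19) and Kif19b (0.49 ± 0.37), neither of which passed.

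In High-VCR relative to Low-VCR 1 kinesin passed, against 7.81% of all genes (3.13% higher, 4.69% lower), and values did not overlap in 3, against 11.1%: Kif5b was higher (0.58 ± 0.17, adjusted p 0.0454), with High-VCR 2 inside the Low-VCR range. That call was lost without NC 1 to 4, ALL 1 to 4, VCR 2, Low-VCR 1, 2 or 3 or High-VCR 1, 3 or 4 (adjusted p 0.0506 to 0.207), and the count was 8 without VCR 1 or without High-VCR 2 and 2 without VCR 3, VCR 4 or Low-VCR 4. Kif1c (0.50 ± 0.15, adjusted p 0.0527) and Kif13a (0.67 ± 0.21, adjusted p 0.0547) came next and did not pass.

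In Low-VCR relative to VCR 14 passed, against 30.2% of all genes (16.7% higher, 13.6% lower), and values did not overlap in 15, against 25.2%. The 10 that were higher were Kif2b (2.01), Kif17 (1.81), Kif27 (1.60), Kif2c (1.56), Kif18b (1.26), Kif21b (1.10), Kif2a (1.003), Kif18a (0.83), Kif23 (0.61) and Kif5c (0.48), with adjusted p between 0.0112 and 0.0423. The 4 that were lower were Kif3c (-0.69), Kif5b (-0.65), Kif13a (-0.63) and Kif1c (-0.61), with adjusted p between 0.0104 and 0.0431. Among them were 5 mitotic, 2 spermatid and cilium and 6 transport kinesins. With Sertoli scaling 9 were higher and none lower, and 96.1% of all genes that passed were higher. The count was 9 without VCR 1, 7 without VCR 2, 22 without VCR 3, 8 without Low-VCR 1 and 9 without Low-VCR 3, and 0 when only these groups or only the 12 treated libraries were fitted. Of 20 fits that each left out 1 library, Kif2a lost its call in 15, Kif3c in 11, Kif18a in 6 and Kif13a in 5. Kif23 lost it in 4, Kif17 in 3 and Kif2c in 1. Kif2b, Kif27, Kif18b, Kif21b, Kif5c, Kif5b and Kif1c lost it in 0.

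In High-VCR relative to VCR none passed by edgeR, DESeq2 or limma voom, against 0.00605% of all genes. Of 38 kinesins 5 had an unadjusted p under 0.05, against 1358 of the 16534 genes tested. Values did not overlap in 1, against 2.89% of all genes. The smallest p values belonged to Kif5c (0.35 ± 0.13, adjusted p 0.49), Kif19b (-0.78 ± 0.30, adjusted p 0.506) and Kif21b (0.73 ± 0.28, adjusted p 0.521). Whether the response to vincristine differed with engraftment was tested as an interaction. For Low-VCR relative to ALL minus VCR relative to NC no kinesin passed by edgeR or limma voom and 1, Kif1a, by DESeq2. Of all genes 5.07% passed by edgeR (3.81% higher, 1.26% lower). An unadjusted p under 0.05 was found for 14 of 38 kinesins, against 4288 of the 16534 genes tested. The nearest were Kif1c (-0.65 ± 0.22, adjusted p 0.0866), Kif1a (-0.67 ± 0.23, adjusted p 0.087) and Kif27 (1.62 ± 0.60, adjusted p 0.105), and the count was 3 without VCR 1, 4 without VCR 3 and 1 without VCR 4, Low-VCR 4 or High-VCR 2. For High-VCR relative to ALL none passed by any of the 3 tools, against 0.00605% of all genes. An unadjusted p under 0.05 was found for 1 kinesin, against 752 of the 16534 genes tested. The smallest p values belonged to Kif19b (-1.27 ± 0.47, adjusted p 0.97), Kif20b (0.53 ± 0.26, adjusted p 0.97) and Kif1a (-0.43 ± 0.23, adjusted p 0.97).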

How the data were processed

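Snap-frozen testis tissue gave poly(A) RNA and then strand-marking libraries, per the labels' protocols. The authors deposited 1 table of raw counts with a row for each gene symbol. Trimmomatic 0.39, STAR 2.7.10b, featureCounts of Subread 2.0.3, DESeq2 1.36.0 and the build GRCm39 (mm39) are named per the submitters' processing notes; the annotation, the strand setting and any removal of human reads are not given in the sources used here. Samples were grouped by their titles, and whether each is a different mouse is not stated in the labels. The p-values speak only of the spread among these libraries, which may be technical.

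Counts were fitted in R 4.3.3 with edgeR 4.0.16 (filterByExpr by group with a minimum count of 10, TMM, robust quasi-likelihood fit of 5 group means, 15 residual degrees of freedom). A standard error is the size of a log2 fold change divided by the root of its F statistic. Exon lengths came from GENCODE M21 and promoters from RefSeq, both of the older build GRCm38 and joined by symbol; Kif19b had no length. Alternatives used DESeq2 1.42.0, limma 3.58.1, other scalings and filters, fewer samples, and added terms. Fold changes with tests were named for every kinesin called in a comparison, or else the 3 with the smallest p, and for Kifc1, Klc3, Cenpe and the 3 called members with the smallest adjusted p of each partner list in VCR relative to NC. Outside that rule, values that did not pass were also given. These were for Kif11, Kif4, Kif24 and Kif26b, for Kif20b in High-VCR and Low-VCR, and for Kif2b and Kif17 in Low-VCR. They are not among the fold changes counted under alternatives. The code was tested on simulated data for VCR relative to NC, and not for the other comparisons. The members and lists were chosen with earlier results of these data known.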

Additional observations from a re-analysis of the deposited data

Results flagged for a closer look

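In 12 of 186 sets of 4 libraries of a group and kinesin, each with a summed count of at least 40, 1 library stood apart from the other 3, judged by its gap to the nearest divided by the range, past Dixon's critical value; chance alone gives about 1 in 20. High-VCR 2 stood above the others of its group for Kif14 (17.97 CPM against 11.4 to 11.6, ratio 0.973), Kif22 (44.9 against 24.5 to 27.3, ratio 0.86) and Kif4 (32.6 against 19.1 to 20.9, ratio 0.866), in the library with the highest spermatocyte marker sum of its group.

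Low-VCR 2 stood below the others for Kif13b (44.9 CPM against 65.5 to 66.1, ratio 0.97) and above them for Kif28 (3.14 against 1.31 to 1.60, ratio 0.844). Low-VCR 3 was low for Kif15 (47.3 against 62.3 to 64.5, ratio 0.867), and VCR 3 was low for Kif26a (15.9 against 19.5 to 20.1, ratio 0.844). Among untreated libraries, ALL 4 was low for Kif11 (31.6 against 33.7 to 34.0, ratio 0.87) and ALL 2 high for Kif7 (26.5 against 22.1 to 22.6, ratio 0.876). NC 1 was high for Kif23 (76.1 against 67.9 to 68.8, ratio 0.888) and low for Kif5b (42.9 against 52.1 to 53.7, ratio 0.85), and NC 4 was low for Kif13a (4.05 against 6.01 to 6.35, ratio 0.853).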

How the results depend on the processing

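Of 3667 fold changes of named genes under alternatives, 3378 kept their direction and their side of the threshold, 241 lost the call, 18 gained one and 30 turned their sign. All 30 came with Sertoli scaling, where every gene is read against the summed counts of Sertoli cell markers. The VCR values relative to NC were then Kif13a -0.79, Kif13b -1.79, Kif19b -0.18, Kif1a -1.79, Kif1c -0.72, Kif21a -0.47, Kif26a -1.26, Kif3c -0.069, Kif5a -0.88, Kif5b -0.43, Trak1 -0.69 and Trak2 -0.67. The Low-VCR values relative to ALL were Kif13a -1.21, Kif19b -1.19, Kif1c -1.07, Kif21a -0.42, Kif26a -0.91, Kif3c -0.48, Kif5a -1.02 and Kif5b -0.65. The High-VCR values relative to ALL were Kif13a -0.87, Kif13b -1.88, Kif19b -1.52, Kif1c -0.89, Kif21a -0.40, Kif26a -1.34, Kif28 -1.03, Kif3c -0.25, Kif5a -1.09 and Kif5b -0.40. The number of kinesins passing in Low-VCR relative to ALL, 15 as reported, was 23 with DESeq2 size factors, 36 with Sertoli scaling, 28 with DESeq2, 31 with only the groups compared and 25 with the library number range as a term. In High-VCR relative to Low-VCR, 1 as reported, it was 5 with DESeq2 and with the library number range, and 0 with DESeq2 size factors, library size alone, upper-quartile scaling, Sertoli scaling, no gene filter, limma voom, only the groups compared, only the 12 treated libraries and the replicate block. In Low-VCR relative to VCR, 14 as reported, it was 9 with Sertoli scaling and 0 with only the groups compared or only the 12 treated libraries, fits with fewer samples. DESeq2 gave 1 for the Low-VCR interaction, and only the groups compared gave 1 (Kif1a) for ALL relative to NC. The cause of the other changes was not tested. Leaving out 1 library at a time gave 30 to 35 in VCR relative to NC, 26 to 33 in High-VCR relative to ALL, 10 to 27 in Low-VCR relative to ALL (27 without VCR 1), 0 to 8 in High-VCR relative to Low-VCR, 7 to 22 in Low-VCR relative to VCR, 0 to 4 for the Low-VCR interaction, and 0 in the 3 other comparisons. Same-numbered samples were not treated as pairs, since in no comparison did every same-numbered pair correlate above 0.1. That cut cannot show that the samples were unpaired. In High-VCR relative to Low-VCR all 4 pairs were above 0, from 0.0027 to 0.176. There 4 of 8 samples correlated best with their own number, against 0 to 3 of 8 in the other comparisons. The replicate block gave 34 in VCR relative to NC, 14 in Low-VCR and 29 in High-VCR relative to ALL, and 12 in Low-VCR relative to VCR. Depth limits Kif3c, Kif19b, Kif28 and Kif12 most.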
